A study of Mus musculus with 6 samples.

Results

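Integrins, laminins, nidogens and the Frem and Fras proteins were followed in the left ventricle of mice from which Paxip1 had been deleted. Paxip1 encodes PTIP, a nuclear protein found in complexes with the histone methyltransferases Kmt2c and Kmt2d. The members were taken by symbol, as every gene named Itga, Itgb, Lama, Lamb, Lamc, Nid, Frem or Fras followed by digits, or by a single letter for integrins. Where several probe sets are annotated to a gene alone, the one of highest average over the 6 arrays stood for it. This gave 38 of the 18193 genes so represented: 15 integrin alpha chains, 8 integrin beta chains, 5 laminin alpha, 3 laminin beta and 2 laminin gamma chains, 2 nidogens, 2 Frem genes and Fras1. RefSeq lists 42 symbols of this form, and those outside the 38 were not analysed here.

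In the 3 PTIP KO mice one Paxip1 allele was floxed and the other null, and these mice carried a transgene in which the promoter of alpha myosin heavy chain drives Cre recombinase fused to a modified estrogen receptor. In the 3 PTIP+ mice one allele was floxed and the other wild type, without mention of a Cre transgene, so the null allele, the Cre transgene and the deletion cannot be told apart. All 6 mice were female littermates aged 8 weeks on a mixed C57B6 and B6129 background. Both groups received tamoxifen at 20 mg/kg into the peritoneum, and RNA of the ventricular apex was collected 5 days later. The Cre driver acts in cardiomyocytes, so the other cells of the apex keep their floxed allele. Each mouse gave 1 array.

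Laminins are trimers of an alpha, a beta and a gamma chain that polymerise into the sheet on which a basement membrane is built, and nidogens link that sheet to the collagen IV network. In heart muscle a basement membrane surrounds each cardiomyocyte and each capillary. Integrins are receptors made of an alpha and a beta chain that bind laminins, collagens, fibronectin or other cells on the outside and the actin cytoskeleton on the inside. Fras1, Frem1 and Frem2 are large extracellular proteins that form a complex in basement membranes beneath embryonic epithelia, and their loss causes skin blistering and fused eyelids in mice.

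The values are log2 expression after RMA, a method that corrects background, equalises the arrays and summarises the probes of each probe set. Differences are given as PTIP KO minus PTIP+ on that log2 scale, with limma's standard error (SE). Benjamini-Hochberg adjustment covered all 45037 tested probe sets, and a difference passed at an adjusted p under 0.05. All 4 Paxip1 probe sets were lower in every PTIP KO mouse than in every PTIP+ mouse, by differences between -1.83 and -0.95, and 3 of the 4 passed. Cardiomyocyte markers lay at mean log2 levels of 13.1 in all 6 mice. A gene is called dim here when its mean lay under 5.50, the highest single value of any Y-linked probe set in these female mice, and 13 of the 38 members were dim. Array PTIP+ 1 had the largest 3' to 5' differences of the actin and Gapdh control probe sets, 1.85 and 1.27, against 1.17 to 1.64 and 0.662 to 0.929 on the other 5 arrays.

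Of the 38 genes, 1 fell and none rose in PTIP KO hearts by limma's adjusted p. The gene that fell was Frem2, an extracellular matrix protein of the Fras1 complex. Over all 18193 genes the same test called 0.176% lower and 0.11% higher. At an unadjusted p under 0.05, 4 members were higher (Lamb3, Itga7, Itgae and Itgal) and 1 was lower (Frem2). That is 10.5% and 2.63% of the members, against 5.47% higher and 3.8% lower over all genes. Over all 80 probe sets of the members, 5 were higher and 5 lower at an unadjusted p under 0.05. Without overlap, 3 lay above and 7 below. Over all 45037 tested probe sets, 2017 were higher and 2066 lower at that p, and 3440 lay above and 3033 below without overlap. Of the 42 probe sets that did not stand for their gene, 1 was higher and 4 were lower at that p, and 20 had the sign of the one that did. The values of the groups did not overlap for 4 members: Lamb3 and Itgal lay above in every PTIP KO mouse, and Frem2 and Itga6 lay below. Each pair is 5.26% of the members, against 9.44% above and 6.57% below over all genes. The median difference of the members was 0.02, equal to that of all genes at 2 decimals. For 32 of the 38 the 95% interval lay within 1 log2 unit either way. Over all genes this held for 17203 of 18193, a larger share than among the members.

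**Figure D1:**
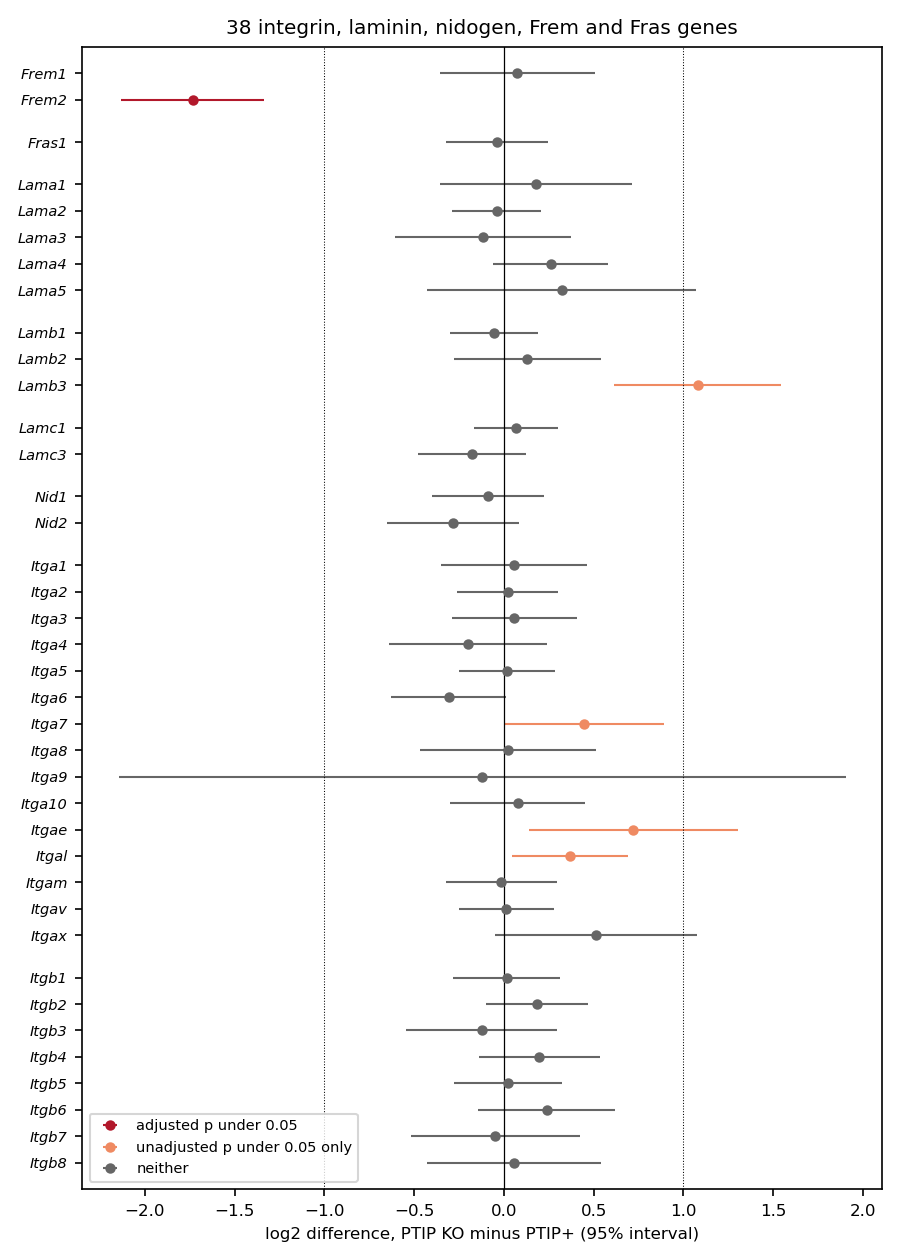
Log2 difference (PTIP KO minus PTIP+, x axis) of each of the 38 genes with its 95% interval from limma (bars), in family order. Dotted lines mark 1 log2 unit either way. Frem2 lies at -1.73, Lamb3 at 1.08, and Itga9 has the widest interval, -2.15 to 1.90.

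Frem2 had log2 values of 5.57, 5.92 and 5.41 in the PTIP KO mice, against 7.60, 7.22 and 7.28 in the PTIP+ mice. Every PTIP KO value lay more than 1 log2 unit below the lowest PTIP+ value, and PTIP KO 3 lay under the dim level. The means were 5.63 ± 0.26 in PTIP KO and 7.37 ± 0.20 in PTIP+ (SD, n = 3 each), so Frem2 fell by 1.73 (SE 0.17), or 3.33-fold lower, with a limma adjusted p of 0.0285. The exact two-sided permutation test of these 6 values gave p = 0.1, the smallest that 3 against 3 mice allow. A single probe set measures Frem2, and in bulk tissue fewer cells that express it and less RNA per cell cannot be told apart. With any 1 of the 6 mice left out, the difference lay between -1.88 and -1.62 and the limma adjusted p between 0.0590 and 0.124, so the call rests on having all 6 arrays.

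The other members of the same complex were dim and did not differ measurably. Frem1 had 3.92, 4.16 and 3.70 in PTIP KO mice and 4.18, 3.63 and 3.74 in PTIP+ mice, a difference of 0.08 (SE 0.18). Fras1, which anchors the complex at the epithelial cell surface, had 3.10, 3.13 and 3.23 in PTIP KO mice and 3.16, 3.36 and 3.05 in PTIP+ mice, a difference of -0.04 (SE 0.12). Its other probe set gave 0.08. The groups overlapped for both genes, and RMA values this near the background compress any change. Mesothelial cells, the epithelium that covers the heart, were followed through 12 markers, whose mean log2 level was 5.89, 4.87 and 6.78 in PTIP KO mice and 6.55, 6.63 and 5.73 in PTIP+ mice. The groups overlapped, 9 of the 12 markers were lower in PTIP KO, none at an unadjusted limma p under 0.05, and their median difference was -0.55. The part of mesothelial content in the Frem2 result was not tested.

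The windows around the annotated start of Frem2 and of Lamb3, the members with the largest differences in each direction, are shown with their CG content. Each holds 250 bases before the start and 50 bases after it, 5′ to 3′ on the gene's strand, from RefSeq (GRCm38.p6), with CG dinucleotides in capitals.
Frem2: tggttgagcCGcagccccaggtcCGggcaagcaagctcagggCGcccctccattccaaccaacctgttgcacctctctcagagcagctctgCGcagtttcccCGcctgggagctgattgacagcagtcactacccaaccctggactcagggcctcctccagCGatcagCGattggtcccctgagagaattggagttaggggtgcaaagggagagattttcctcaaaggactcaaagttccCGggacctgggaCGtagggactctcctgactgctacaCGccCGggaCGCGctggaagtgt
Lamb3: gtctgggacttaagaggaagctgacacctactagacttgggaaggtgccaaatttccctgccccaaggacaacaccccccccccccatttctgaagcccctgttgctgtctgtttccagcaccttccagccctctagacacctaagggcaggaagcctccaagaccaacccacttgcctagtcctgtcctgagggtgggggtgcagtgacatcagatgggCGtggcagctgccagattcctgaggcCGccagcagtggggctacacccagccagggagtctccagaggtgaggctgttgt
The Frem2 window is chr3:53657306-53657605 on the minus strand, and the Lamb3 window is chr1:193301744-193302043 on the plus strand, 1 of 2 windows that RefSeq gives for Lamb3. Frem2 has 13 CG dinucleotides and Lamb3 has 2, against a median of 7 over 32851 windows of the same length. The median over the 28 windows of the 24 members that RefSeq's table holds was 11. The letters CCAAT, searched on both strands, occur in the Frem2 window 2 times, both as the reverse complement, and are not in the Lamb3 window. They occur in 37.4% of all windows and in 7 of the 28 member windows. The letters TATAAA, searched on both strands, are in neither window and in none of the 28, against 13.6% of all windows. Also searched were GGGCGG and TGANTCA, where N is any base, and neither is in the windows shown. GGGCGG occurs in 13 of the 28 member windows and TGANTCA in 3, against 35.7% and 7.81% of all windows.

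**Figure D2:**
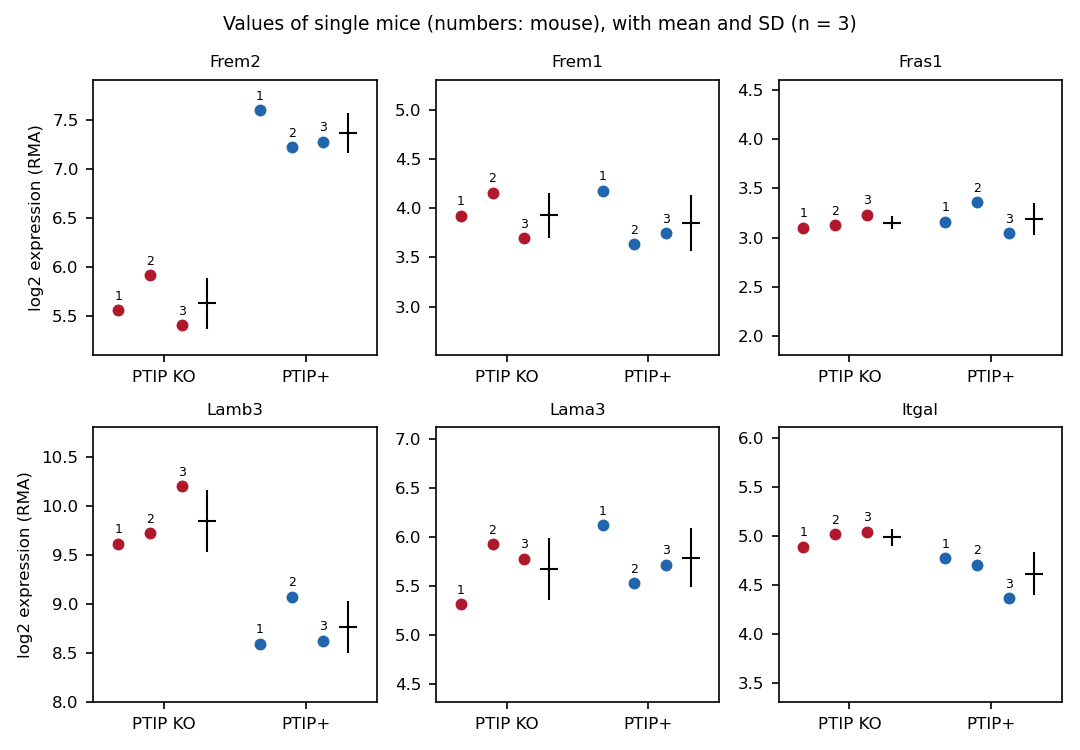
Log2 expression (y axis) of single mice, numbered as in the labels, for Frem2, Frem1, Fras1, Lamb3, Lama3 and Itgal, with mean and SD (n = 3 per group). Each panel spans the same number of log2 units, so distances can be compared between panels. The groups are apart for Frem2, Lamb3 and Itgal.

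Among the 10 laminin chains, none passed the test. Lamb3 had the largest difference, 9.61, 9.72 and 10.20 in PTIP KO mice against 8.60, 9.07 and 8.63 in PTIP+ mice. All PTIP KO values lay above all PTIP+ values. Lamb3, the beta chain of the laminin that anchors the epidermis, averaged 9.84 ± 0.31 in PTIP KO and 8.77 ± 0.27 in PTIP+ (SD, n = 3 each), a difference of 1.08 (SE 0.20, 95% interval 0.61 to 1.55). Its limma adjusted p was 0.140 and its exact permutation p was 0.1, so it missed the threshold although the interval excludes 0. The difference stayed between 0.90 and 1.23 with any 1 mouse left out. The partner chain Lama3, which joins Lamb3 in that epithelial laminin, had 5.31, 5.93 and 5.78 in PTIP KO mice against 6.12, 5.53 and 5.72 in PTIP+ mice, and the groups overlapped (difference -0.12, SE 0.21).

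The chains of the laminins of muscle and vessel walls differed little between the groups. Lama2, the alpha chain of the muscle laminin whose loss causes congenital muscular dystrophy in mice, had 10.90, 10.76 and 10.79 in PTIP KO mice and 10.77, 10.91 and 10.89 in PTIP+ mice (difference -0.04, SE 0.11). Lama4, the alpha chain found with capillary endothelium, had 10.97, 11.24 and 11.06 in PTIP KO mice and 11.03, 10.78 and 10.67 in PTIP+ mice, a difference of 0.26 (SE 0.14). The groups overlapped for both genes. Lamb2 had 11.84, 11.40 and 11.62 in PTIP KO mice and 11.19, 11.62 and 11.66 in PTIP+ mice (0.13, SE 0.18). Lamc1, the gamma chain of nearly all laminins outside the epidermis, had 10.81, 10.80 and 10.90 in PTIP KO mice and 10.71, 10.81 and 10.78 in PTIP+ mice (0.07, SE 0.10). Lamb1 differed by -0.06. The dim chains Lama1 and Lamc3 differed by 0.18 and -0.18.

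Lama5, the alpha chain of laminins in endothelium and epithelium, was the laminin that varied most within the groups. It had 10.33, 9.38 and 9.76 in PTIP KO mice and 9.03, 9.41 and 10.09 in PTIP+ mice, a difference of 0.32 (SE 0.32). A second probe set showed the same pattern, with 9.02, 8.18 and 8.49 in PTIP KO mice and 7.78, 8.05 and 8.83 in PTIP+ mice. Mouse PTIP KO 1 was highest on both and PTIP+ 1 was lowest, and the groups overlapped. With 1 mouse left out the difference lay between 0.07 and 0.61.

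Neither nidogen passed the test. Nid1, the main linker between laminin and collagen IV, had 10.88, 11.25 and 11.18 in PTIP KO mice and 11.08, 11.26 and 11.23 in PTIP+ mice, a difference of -0.09 (SE 0.13). Nid2 differed by -0.28 (SE 0.16, limma adjusted p = 0.675), and its groups overlapped. Array PTIP+ 1, which had the largest 3' to 5' differences, was lowest on a second Nid1 probe set, at 6.48, below the other 5 arrays. The remaining Nid1 probe set, which was dim, lay below in every PTIP KO mouse, by -0.33 (SE 0.13, limma adjusted p = 0.521). The part of RNA quality in these values was not tested.

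The integrin alpha chains that bind laminin did not move together. Itga6, a laminin receptor of endothelium and epithelium, had 10.29, 10.55 and 10.69 in PTIP KO mice and 10.91, 10.84 and 10.70 in PTIP+ mice. Every PTIP KO value lay below every PTIP+ value, by a difference of -0.31 (SE 0.14, limma adjusted p = 0.575), and its other probe set (-0.19) overlapped. Itga7, the main laminin-binding alpha chain of muscle, had 10.01, 9.35 and 9.51 in PTIP KO mice and 9.03, 9.12 and 9.37 in PTIP+ mice. Its groups overlapped, at a difference of 0.45 (SE 0.19, limma adjusted p = 0.549). Itga3 differed by 0.06 (SE 0.15).

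The alpha chains that bind collagen were followed through Itga1, Itga2 and Itga10, as Itga11 was not measured. These chains, and those that bind the RGD motif of fibronectin and vitronectin, differed by 0.01 to 0.08 on the probe sets standing for them. Itga1 had 10.52, 10.62 and 10.57 in PTIP KO mice and 10.15, 10.82 and 10.56 in PTIP+ mice (difference 0.06, SE 0.17), and the dim Itga2 and Itga10 differed by 0.02 and 0.08. Itga5, the alpha chain of the classical fibronectin receptor, and Itga8 differed by 0.02. The other 3 probe sets of Itga5 gave -0.36, -0.08 and -0.42, none passing, and the mean over its probe sets differed by -0.21. The second Itga1 probe set gave -0.14. Itgav, whose chains with several beta partners bind vitronectin and latent TGF-beta, had the highest array mean of the alpha chains. It had 10.90, 11.10 and 11.05 in PTIP KO mice and 11.12, 10.95 and 10.95 in PTIP+ mice, a difference of 0.01 (SE 0.11, 95% interval -0.25 to 0.28). Its other 4 probe sets were dim, with differences between -0.31 and -0.02, and that at -0.31 (limma adjusted p = 0.514) lay below in every PTIP KO mouse.

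Itga9 and Itga4 form a closely related pair whose products bind fibronectin and Vcam1. Itga4 differed by -0.20 (SE 0.19) and its groups overlapped. For Itga9 the probe sets disagreed. The probe set with the highest mean had 7.76, 7.82 and 5.52 in PTIP KO mice and 6.20, 8.94 and 6.33 in PTIP+ mice. It ranged widely inside both groups, with a within-group SD of 1.43, the largest of the 38 members, against 0.508 for Lama5, the next. Its difference of -0.12 (SE 0.87) therefore has a wide 95% interval, -2.15 to 1.90. Another Itga9 probe set had 5.97, 6.14 and 5.85 in PTIP KO mice and 6.76, 7.01 and 6.79 in PTIP+ mice. Every PTIP KO value lay below every PTIP+ value, by -0.86 (SE 0.13, limma adjusted p = 0.0728). The last Itga9 probe set also lay below in every PTIP KO mouse, at 4.89, 5.25 and 5.16 in PTIP KO against 5.45, 5.53 and 5.33 in PTIP+ (difference -0.34, limma adjusted p = 0.505). Both are described here because of their values, the variable probe set being the one of highest mean.

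**Figure D3:**
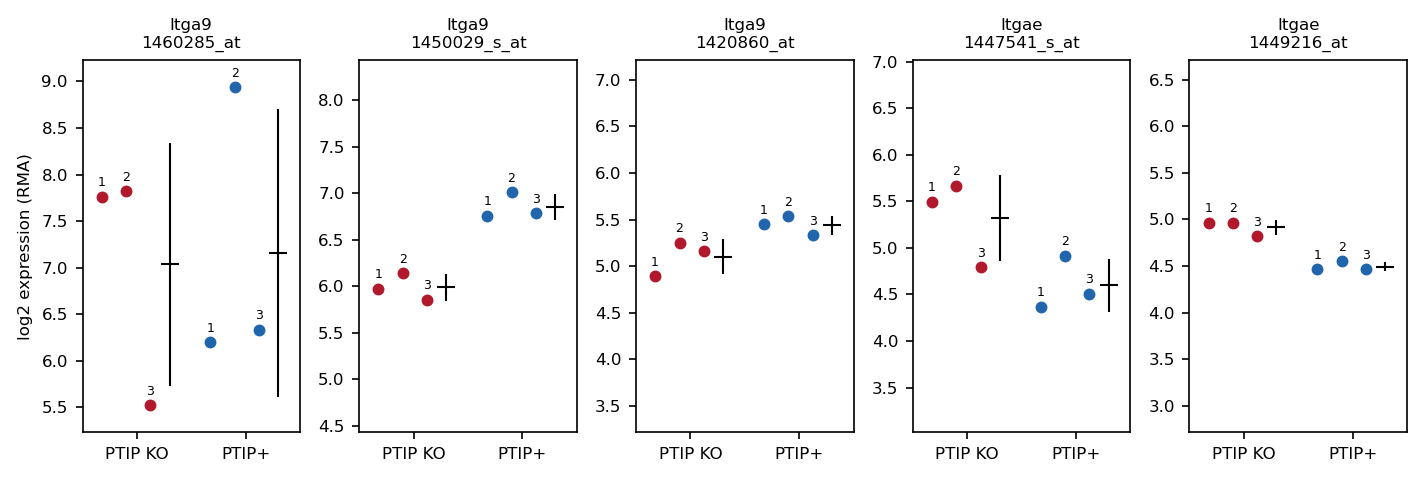
Log2 expression (y axis) of single mice for 3 Itga9 probe sets and 2 Itgae probe sets, with mean and SD (n = 3 per group). The first Itga9 probe set ranges from 5.52 to 8.94 across mice of both groups, while the other 2 are lower in all PTIP KO mice. The second Itgae probe set is higher in all PTIP KO mice.

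The white blood cell integrin alpha chains Itgal, Itgae, Itgax and Itgam were all dim in this tissue, so their values describe a low signal. Itga4, given with Itga9 above, was not dim. Itgal, the alpha chain of the leukocyte integrin LFA-1, had 4.89, 5.02 and 5.04 in PTIP KO mice and 4.77, 4.71 and 4.37 in PTIP+ mice, all PTIP KO values above all PTIP+ values. The difference was 0.37 (SE 0.14, limma adjusted p = 0.479, exact permutation p = 0.1), and its other probe set gave -0.02. Itgae, which pairs with Itgb7 on T cells and some dendritic cells, had 5.49, 5.67 and 4.79 in PTIP KO mice against 4.37, 4.91 and 4.51 in PTIP+ mice, a difference of 0.72 (SE 0.25, adjusted p = 0.443), with overlap. A second Itgae probe set lay above in every PTIP KO mouse, by 0.42 (SE 0.10, limma adjusted p = 0.262). Haspin, a gene that RefSeq places inside Itgae, was dim and differed by -0.03. Itgax and Itgam, chains of complement receptors on myeloid cells, differed by 0.51 (SE 0.24) and -0.01.

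Macrophage markers lay lower in PTIP KO mice while the Itgal and Itgae values lay higher. Of 13 macrophage and dendritic cell markers, all 13 were lower in PTIP KO and 5 reached an unadjusted p under 0.05, with a median difference of -0.36. None passed, the lowest limma adjusted p being 0.288. Their mean log2 level was 8.47, 7.92 and 8.19 in PTIP KO mice and 8.48, 8.67 and 8.49 in PTIP+ mice. The 9 lymphocyte markers, all dim, overlapped, with 4.60, 4.02 and 3.89 in PTIP KO mice and 4.14, 3.81 and 4.23 in PTIP+ mice. Ptprc, the pan-leukocyte surface protein CD45, differed by -0.31 (limma adjusted p = 0.641). The part of these cell contents in the integrin values was not tested.

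**Figure D4:**
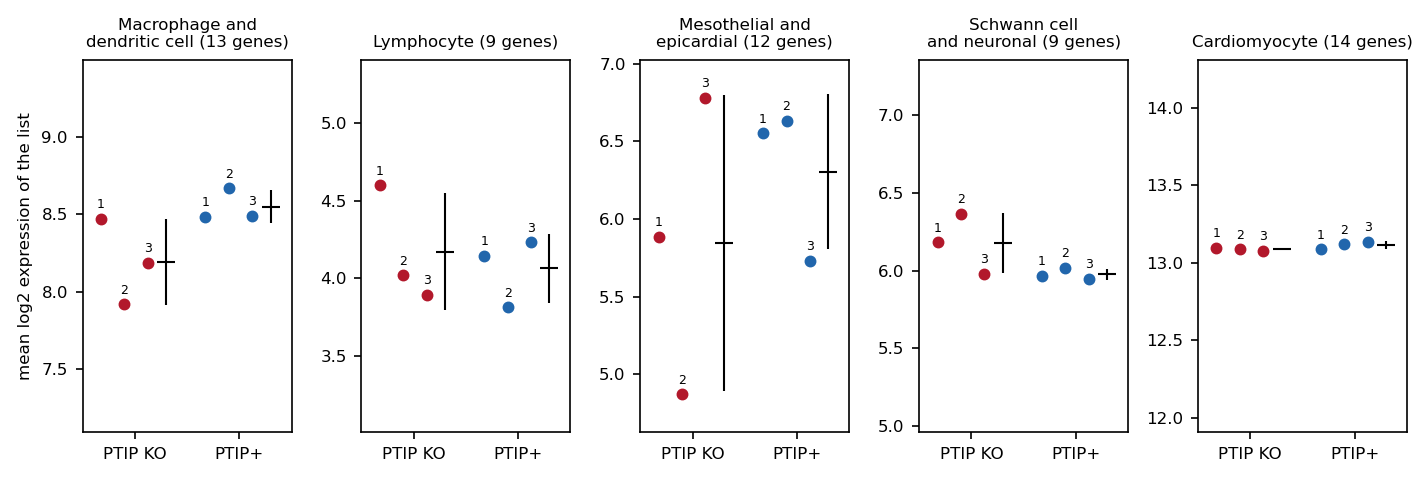
Mean log2 level (y axis) of 5 cell marker lists in single mice, numbered as in the labels, with mean and SD (n = 3 per group). The macrophage list is lower in all PTIP KO mice than in any PTIP+ mouse, but narrowly, with PTIP KO 1 at 8.47 and PTIP+ 1 at 8.48. The mesothelial list spreads over 4.87 to 6.78 in PTIP KO mice, and the cardiomyocyte list stays at 13.1 in both groups.

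The integrin beta chains showed small differences. Itgb1, the partner of most laminin- and collagen-binding alpha chains, had the highest array mean of the 8, with 11.35, 11.36 and 11.35 in PTIP KO mice and 11.15, 11.54 and 11.33 in PTIP+ mice. Its difference was 0.01 (SE 0.13, 95% interval -0.29 to 0.31). Another Itgb1 probe set read 8.66 on array PTIP+ 1, against 9.58, 9.84 and 9.90 in the PTIP KO mice and 9.78 in PTIP+ 3. The Itgb5 chain, an Itgav partner, was measured by 4 probe sets that gave differences of 0.02 to 0.03. Itgb2, the common beta chain of leukocyte integrins, differed by 0.18 (SE 0.12), and Itgb3 by -0.12. Itgb6 differed by 0.24 on one probe set and by -0.27 on another. The dim chains Itgb4, Itgb7 and Itgb8 differed by 0.20, -0.05 and 0.06. For all 8 beta chains the 95% interval lay within 1 log2 unit either way, as it did for 17203 of all 18193 genes.

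**Figure D5:**
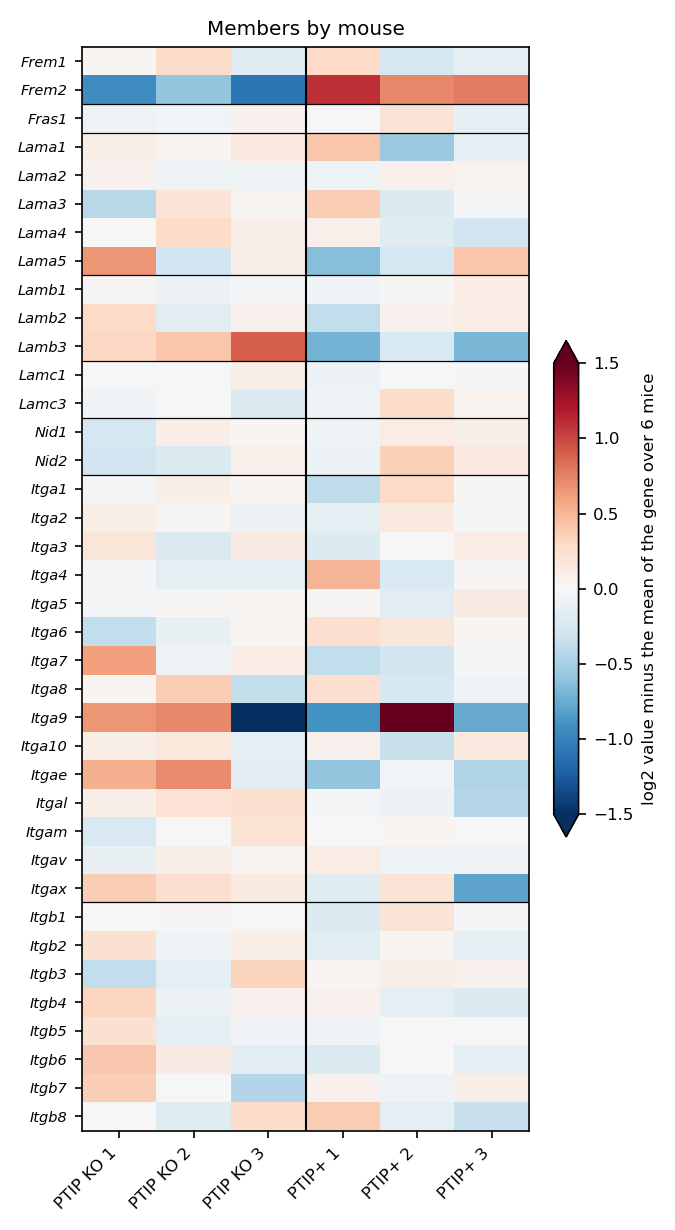
Log2 value of each of the 38 genes in each mouse minus the gene's mean over the 6 mice (colour), PTIP KO on the left. The group means of Frem2 and Lamb3 differ by more than 1 log2 unit, and Itga9 varies between mice in both groups.

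Genes that work with these proteins were counted in 5 lists holding 116 measured genes. None passed in either direction by limma's adjusted p. At an unadjusted p under 0.05, 9 of the 116 were higher and 4 lower. Over all genes 5.47% were higher and 3.8% lower at that p, and these shares are also the background for each list below. The median difference was 0.02. Of the 33 integrin adaptors and signalling proteins, 2 were higher at an unadjusted p under 0.05 and none lower. Ptk2b, a relative of focal adhesion kinase, had 8.25, 8.14 and 7.88 in PTIP KO mice and 7.07, 7.08 and 7.21 in PTIP+ mice. All PTIP KO values lay above all PTIP+ values, by 0.97 (SE 0.13, limma adjusted p = 0.0515), just short of the threshold. Flnc, an actin cross-linker of muscle that binds integrin adaptors, differed by 0.50 (adjusted p = 0.376), and Src by 0.38 (0.602).

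Of 28 other basement membrane components, 2 were higher and 2 lower at an unadjusted p under 0.05. Ntn1, the laminin-related guidance protein netrin 1, had 10.88, 10.76 and 10.55 in PTIP KO mice and 9.36, 9.85 and 9.84 in PTIP+ mice. The groups did not overlap, and the difference was 1.04 (SE 0.17, limma adjusted p = 0.0889). Hmcn1, an extracellular matrix protein that assembles with basement membranes, differed by 0.54 (adjusted p = 0.218) and Egflam, known as pikachurin, a dystroglycan ligand of the retina, by -0.41 (0.432). Of the 29 integrin ligands other than laminins, 3 were higher and 1 lower. Thbs4 differed by -0.47 (adjusted p = 0.332), Ccn2 by 0.52 (0.404) and Vcam1 by 0.29 (0.520). Of the 21 laminin receptors other than integrins, 2 were higher and none lower: Sgcd, the delta sarcoglycan of the dystrophin complex, differed by 0.64 (adjusted p = 0.408) and Dtna by 0.36 (0.432), while Sntb1 differed by -0.28. In the 9 partners of the Fras and Frem proteins, 1 was higher (Hmcn1, also counted above) and 1 lower (Grip2). Grip2, a relative of Grip1, which carries Fras1 to the cell surface, had 7.14, 7.11 and 7.37 in PTIP KO mice against 7.97, 7.64 and 8.15 in PTIP+ mice, all PTIP KO values below (difference -0.71, SE 0.16, limma adjusted p = 0.213). Pdgfc, with an unadjusted limma p of 0.0528, differed by 0.40 (adjusted p = 0.559).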

How the data were processed

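Deposited values are log2 expression made by the authors with RMA, per the submitters' processing notes. For RMA a version was not given in the sources used here. That the scale is log2 was read off the range of 1.36 to 14.1. Because RMA equalises the arrays, a shift in the RNA content of all cells leaves no trace, and changes of dim probe sets are compressed. Target was amplified and labelled with the NuGen Ovation Biotin system, per the labels' protocols. Of 45101 probe sets, 64 controls were left out. The annotation names 1 gene for 34945, several for 932 and none for 9160. Symbols were updated by Entrez identifier through RefSeq GRCm38.p6, which matched 34741. PTIP KO was set against PTIP+ in limma 3.58.1 under R 4.3.3 (two-sided, lmFit then eBayes, no trend, not robust). The labels call the mice littermates and give 2 groups of 3. Precision is set by the number of mice: the median SE was 0.147.

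The members, lists and rule were chosen with earlier results of these data known. Values of every array are given for members that passed, those with an unadjusted p under 0.05 and no overlap, and the member of highest array mean in each family. Array values of other members, and of Paxip1, were added after their values had been seen. Up to 3 genes of smallest p are named per list. Replicate numbers are not said to pair the mice, and the main fit used no pairing. Correlations of same-numbered deviations were -0.151, -0.082 and -0.011, against -0.182 to 0.204 for unlike numbers. Deviations from a mean of 3 mice constrain one another, so these values cannot decide whether mice were paired. Of the 11 cell marker lists, those without a median above had median differences of 0.01 (neutrophil), -0.02 (endothelial), -0.003 (fibroblast) and -0.03 (cardiomyocyte). Further such medians were 0.10 (lymphocyte), 0.03 (smooth muscle and pericyte), -0.16 (platelet and erythroid) and 0.28 (Schwann cell and neuronal). Alternatives were array weights, a variance trend, a robust prior, no moderation, renewed quantile normalization, centring on the array median, 2 filters on dim probe sets, the mean over a gene's probe sets, the replicate block, leaving out each mouse, the 4 arrays whose description numbers share leading digits, and an adjusted p under 0.10.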

Additional observations from a re-analysis of the deposited data

How the results depend on the processing

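The Frem2 difference kept its sign in all 18 alternatives and passed in 9. The count of members called lower, 1, became 0 with any 1 mouse left out (range 0 to 0), without moderation and with the replicate block. With the 4 arrays that share leading description digits, of which 1 is PTIP KO, Frem2 differed by -1.96. That fit has no spread within PTIP KO to draw on, so its p is not given. With the replicate block the limma adjusted p of Frem2 was 0.154, and 0 of 45037 probe sets passed, so the block changed the Frem2 call. The count of members called higher was 0 throughout. The count of related genes called, 0, became 1 with array weights, either filter on dim probe sets or the mean over a gene's probe sets (Ptk2b each time), and 2 with centring on the array median, with a variance trend or at an adjusted p under 0.10 (Ptk2b and Ntn1). Lamb3 passed in none, with limma adjusted p between 0.0504 and 0.769. The Itga9 probe set that differed by -0.86 passed with array weights (-0.90, adjusted p = 0.0393), with the filter at the median (0.0486) and at an adjusted p under 0.10 (0.0728). Filters at a mean of 4 and at the median removed 7 and 13 members. Leaving out 1 mouse left between 0 and 21 probe sets called, against 86 with all 6 mice. The causes of these shifts were not tested. Dim members, values near the Y-linked level, and the 3 mice per group limit what these arrays can show.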

Other observations

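Genes that carry an integrin name but fall outside the family rule were read in the same way, chosen after the values had been seen. Itga2b, the platelet integrin alpha chain, whose symbol ends in a digit and a letter, differed by 0.10 and was dim. Itgb1bp1 and Itgb1bp2 (melusin, a muscle protein that binds the beta chain of Itgb1) differed by 0.16 and -0.06. Itgb3bp, Itgbl1 and Itgb2l differed by 0.16, 0.08 and -0.02.

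Neighbouring genes on the chromosome were also read after the values had been seen. Next to Lamb3, G0s2, an inhibitor of lipid breakdown, lay below in every PTIP KO mouse, at 10.71, 10.87 and 10.58 in PTIP KO mice against 11.23, 10.98 and 11.18 in PTIP+ mice (difference -0.41, limma adjusted p = 0.389), so it ran opposite to Lamb3. Camk1g, next to it, differed by -0.48 and was dim. The neighbours of Frem2, Proser1 and Stoml3, differed by 0.06 and -0.01 on their probe sets of highest mean, and Stoml3 was dim. Further Proser1 probe sets, which were dim, gave -0.30 and -0.19. That at -0.30 (limma adjusted p = 0.639) lay below in every PTIP KO mouse. P2rx5, next to Itgae, had 9.79, 9.95 and 9.62 in PTIP KO mice and 9.06, 8.60 and 8.85 in PTIP+ mice, a difference of 0.95 (SE 0.15, limma adjusted p = 0.0898) with no overlap. Golga4 and Ctdspl, on chromosome 9 like Itga9, differed by 0.15 and -0.07 on their probe sets of highest mean. Further Golga4 probe sets gave 0.35 and 0.44 (limma adjusted p = 0.428 and 0.526), both above in every PTIP KO mouse.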
